A study of Homo sapiens with 38 samples.

Results

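C/D box small nucleolar RNAs (snoRNAs) other than U3, U8 and U13 were followed in the extracellular RNA of DiFi, an established line from a human colorectal cancer that is labelled epithelial. Members were the snoRNA rows of the count table whose first symbol starts with SNORD and whose raw counts over the 38 libraries sum to at least 100. The rule gave 141 of 22549 rows, out of 739 snoRNA rows and 246 C/D rows other than U3, U8 and U13, and the other 105 of those 246 lay under the minimum. Just inside it, SNORD115-12/SNORD115-9 had 109.5 counts and SNORD116-24 had 100.2, and just outside it SNORD115-14 had 98.2 and SNORD116-22 had 96.4. Because the summed counts chose the members, how many of them differ between groups is given as a description.

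The 11 groups differ by culture, fraction and isolation method. In 2D, flat culture kept for 48 h without serum (3 medium pools of 1360 mL), ultracentrifugation (UC) gave small extracellular vesicles (sEV), exomeres and supermeres, 3 libraries each. Exomeres and supermeres are small particles without a membrane. In 3D, a hollow-fibre bioreactor (4 medium pools of 400 mL), UC gave the same fractions, 3 libraries each. FPLC size-exclusion chromatography of 3D medium gave exomeres and supermeres, 4 libraries each, and a cushion density gradient of 3D medium gave the fraction pools 6_7, 9_10 and 12, 4 libraries each. For the gradient, the series' description speaks of lighter and heavier vesicles and of material outside vesicles, without saying which pool holds which. All RNA had been treated with AlkB enzymes, which remove base methylations that stop reverse transcription, and all libraries are labelled as the same line with no drug or gene change. A second line, CC-CR, appears in the growth protocol, and none of the libraries carries its name. The replicate letters are not tied to the medium pools, so p-values measure the spread between these libraries, which may be technical.

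Levels are in CPM, the counts of a row scaled to 1000000 counts in the library. The 37 libraries used held from 81079 to 1.70e+07 counts, and those of gradient 9_10 were the shallowest, with 81079 to 490374 counts. A library labelled 3D supermere A held 46 counts and none on a member, and it was left out, so 3D supermere has 2 libraries in every value. As a check of the label, 5 miRNAs of gut epithelium summed to 33038 to 82579 CPM in the 2D and 3D sEV libraries, and to 289 to 1224 CPM in gradient 12, 76.4 to 755 in 3D supermeres and 36.7 to 334 in FPLC supermeres. The 5 miRNAs of blood, liver, endothelium and muscle summed to 74.0 CPM or less in any library. Fewer particles with an RNA and less of it per particle cannot be told apart in such bulk libraries, and a count does not tell a whole snoRNA from a fragment.

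C/D box snoRNAs carry a box C near the 5′ end and a box D near the 3′ end, which fold together and bind the proteins NOP56, NOP58, SNU13 and the methyltransferase fibrillarin. A stretch upstream of box D, or of an internal copy, pairs with a target RNA and sets where fibrillarin methylates a ribose. Most targets lie in 18S and 28S ribosomal RNA, some in 5.8S rRNA or U6 snRNA, and orphan members have no known rRNA site. In human cells nearly all are cut from introns of host genes, many of which encode ribosomal proteins, and they stay in the nucleolus.

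The members on which the results turn are shown from GENCODE release 29 on GRCh38, 5′ to 3′ as DNA letters. Capitals mark a box C core TGATGA within the first 20 bases and the last box D CTGA within the final 20. SNORD33, at chr19:49490615-49490699 on the plus strand in RPL13A, took the most counts. SNORD127 (chr14:45110883-45110968, plus, PRPF39) and SNORD123 (chr5:9548836-9548905, plus, SNHG18) were high in 2D exomeres and supermeres. SNORD26 (chr11:62855292-62855366, minus, SNHG1) and SNORD102 (chr13:27255064-27255135, plus, RPL21) were high in 3D sEV, and SNORD2 (chr3:186784796-186784864, plus, EIF4A2) in 2D sEV. SNORD14A (chr11:17074654-17074744, minus, RPS13) and SNORD10 (chr17:7576811-7576952, plus, EIF4A1) were high in gradient 12. SNORD83A (chr22:39315213-39315307, minus, RPL3) was the highest member in library A of gradient 6_7 and of gradient 9_10.
SNORD33: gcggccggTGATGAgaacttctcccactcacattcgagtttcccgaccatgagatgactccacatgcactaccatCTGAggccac
SNORD127: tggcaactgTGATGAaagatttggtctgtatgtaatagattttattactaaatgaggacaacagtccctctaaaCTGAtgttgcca
SNORD123: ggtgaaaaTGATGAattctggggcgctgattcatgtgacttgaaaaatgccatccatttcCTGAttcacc
SNORD26: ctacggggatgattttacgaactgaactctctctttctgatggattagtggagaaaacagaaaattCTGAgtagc
SNORD102: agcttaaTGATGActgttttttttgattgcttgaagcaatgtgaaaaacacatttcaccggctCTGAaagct
SNORD2: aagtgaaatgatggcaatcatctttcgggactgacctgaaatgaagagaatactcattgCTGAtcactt
SNORD14A: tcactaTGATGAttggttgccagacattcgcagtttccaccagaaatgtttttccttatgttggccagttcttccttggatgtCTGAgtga
SNORD10: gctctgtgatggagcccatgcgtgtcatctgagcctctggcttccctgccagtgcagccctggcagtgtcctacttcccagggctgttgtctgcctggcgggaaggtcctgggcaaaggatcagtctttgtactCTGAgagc
SNORD83A: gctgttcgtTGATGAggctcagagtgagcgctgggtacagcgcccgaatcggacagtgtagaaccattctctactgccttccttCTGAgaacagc

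In these 9 sequences the letters CTGA stand close to the 3′ end throughout, and SNORD26, SNORD2 and SNORD10 have no TGATGA in the searched window. All 141 members matched the coordinates of the annotation, and 139 had a sequence there. TGATGA stood in the first 20 bases of 97 (69.8%), CTGA in the last 20 of 136 (97.8%), and both in 96 (69.1%). Among the 105 C/D rows under the minimum both stood in 58.1%, and among 186 H/ACA box snoRNAs with a sequence, which carry other boxes and guide pseudouridylation, in 0. The median length was 80 nt, from 64 to 237. Protein-coding genes hosted 102 members, 39 of them in genes of ribosomal proteins, and noncoding transcripts hosted 38. Several members can share a host. By this annotation 67 members lie in an intron, 58 inside an exon of some host transcript, SNORD33, SNORD26, SNORD102, SNORD2 and SNORD10 among them, and 15 overlap an exon. The sources used here do not say whether counting used the strand, so reads of the host transcript over these bases were not separated.

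SNORD33, a guide of 18S rRNA, held most of the C/D counts of UC exomeres and of all supermeres and a minority of those of sEV. Over all libraries it took 54.3% of the 759913 member counts and was the highest member in 33 libraries. In 2D sEV its level was 710, 733 and 1235 CPM, in 2D exomeres 4687, 4203 and 3881 CPM, and in 2D supermeres 10183, 9715 and 5796 CPM. Every exomere library lay above every sEV library, and every supermere library above every exomere library. In 3D sEV it was 1485, 555 and 588 CPM, in 3D exomeres 979, 373 and 580 CPM, and in 3D supermeres 2150 and 422 CPM, and these groups overlapped. FPLC exomeres had 750, 2202, 2460 and 2590 CPM, and FPLC supermeres 570, 1546, 1269 and 2671 CPM, which overlapped as well. Gradient 6_7 had 45.7, 346, 69.9 and 54.1 CPM, gradient 9_10 had 122, 601, 1357 and 565 CPM, and gradient 12 had 507, 2080, 1028 and 2583 CPM. Gradient 12 lay above gradient 6_7 in every library, while gradient 9_10 overlapped both.

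As a share of the member counts, SNORD33 was 24.8% ± 3.03 (SD, n = 3) in 2D sEV, 70.6% ± 1.37 (n = 3) in 2D exomeres and 81.3% ± 0.486 (n = 3) in 2D supermeres. The same order was seen in 3D, with 12.2% ± 7.91 (n = 3) in sEV, 73.1% ± 7.17 (n = 3) in exomeres and 84.8% ± 0.560 (n = 2) in supermeres. By FPLC, exomeres had 35.4% ± 10.3 (n = 4) and supermeres 84.1% ± 8.27 (n = 4). FPLC exomeres therefore lay below the UC exomeres of the same culture, with 23.2% to 44.4% against 67.9% to 81.2%. The gradient pools had 17.8% ± 16.4 in 6_7, 35.1% ± 19.4 in 9_10 and 46.4% ± 15.5 in 12 (n = 4 each), and overlapped. When the snoRNA total replaced the library total, SNORD33 rose in exomeres over sEV by 1.64 on the log2 scale in 2D (edgeR, adjusted p = 0.0047) and by 3.42 in 3D (adjusted p = 1.5e-06). Supermeres exceeded sEV by 1.58 in 2D (edgeR, adjusted p = 0.0027) and by 4.04 in 3D (adjusted p = 8.2e-08) on that scale, and FPLC supermeres exceeded FPLC exomeres by 3.07 (adjusted p = 3.5e-07). FPLC exomeres lay below 3D UC exomeres (log2 -2.61, edgeR, adjusted p = 4.1e-05).

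**Figure D1:**
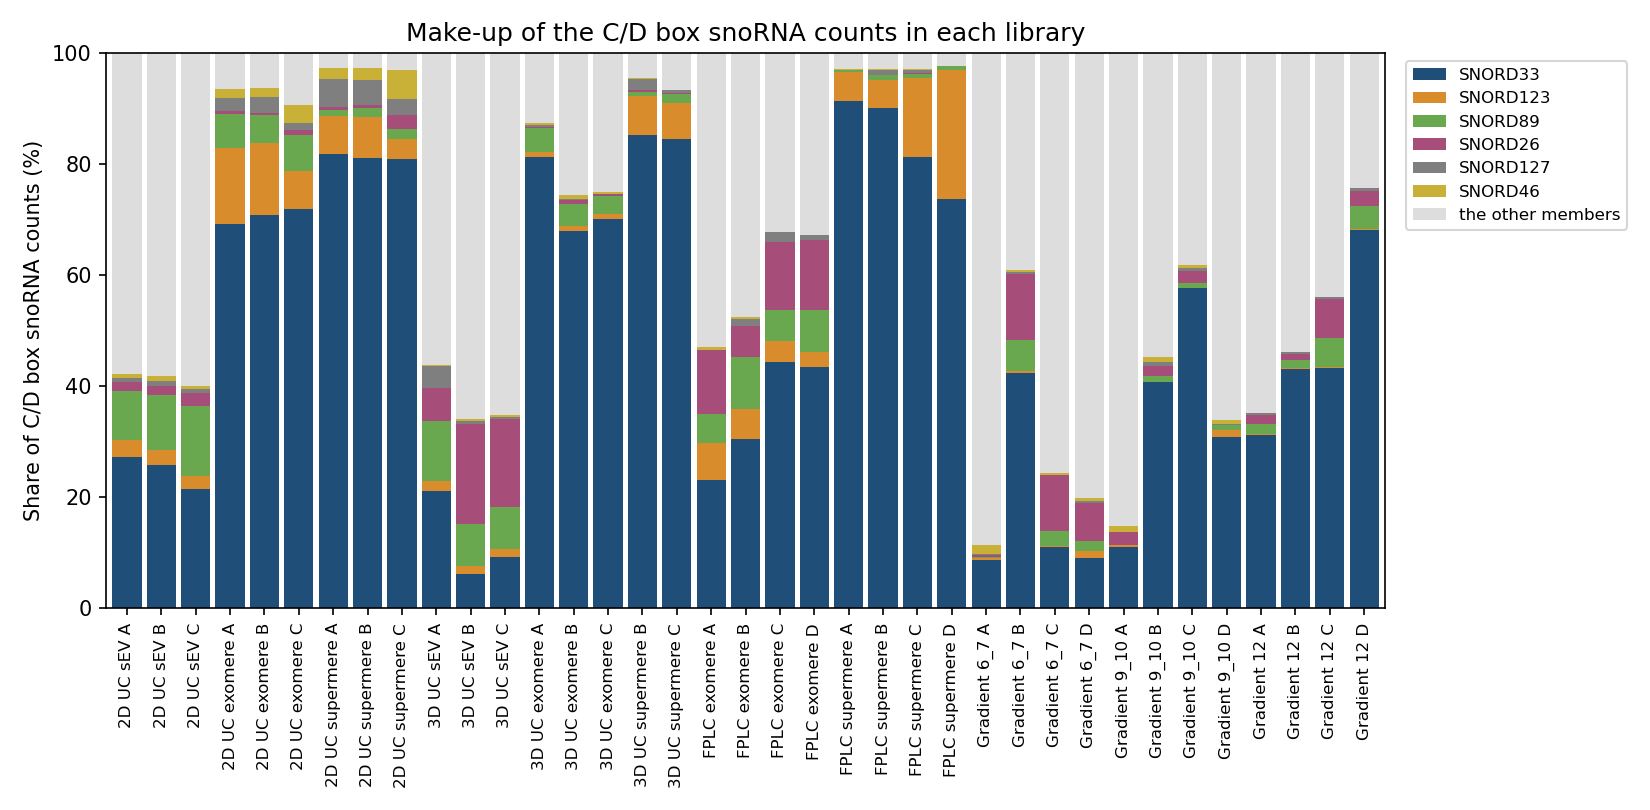
Each bar is 1 of 37 libraries, and the y axis gives the share of its C/D box snoRNA counts (%) taken by SNORD33, SNORD123, SNORD89, SNORD26, SNORD127, SNORD46 and the remaining members. SNORD33 fills 67.9% to 85.2% of every UC exomere and supermere bar and 6.26% to 27.3% of every UC sEV bar.

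The other 140 members followed another order. Their summed level was 1895, 2113 and 4530 CPM in 2D sEV, 2093, 1733 and 1521 CPM in 2D exomeres and 2260, 2253 and 1369 CPM in 2D supermeres, so these 3 groups overlapped. In 3D it was 5522, 8311 and 5812 CPM in sEV, 226, 177 and 248 CPM in exomeres and 373 and 77.8 CPM in supermeres. There the sEV libraries stood far above both particle groups, without overlap. FPLC exomeres held 2486, 5016, 3077 and 3373 CPM, above every 3D UC exomere library, and FPLC supermeres 53.3, 169, 292 and 951 CPM. The gradient pools held 511 ± 45.1 CPM in 6_7, 1031 ± 166 in 9_10 and 1603 ± 762 in 12 (SD, n = 4 each), with 6_7 below both other pools in every library.

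**Figure D2:**
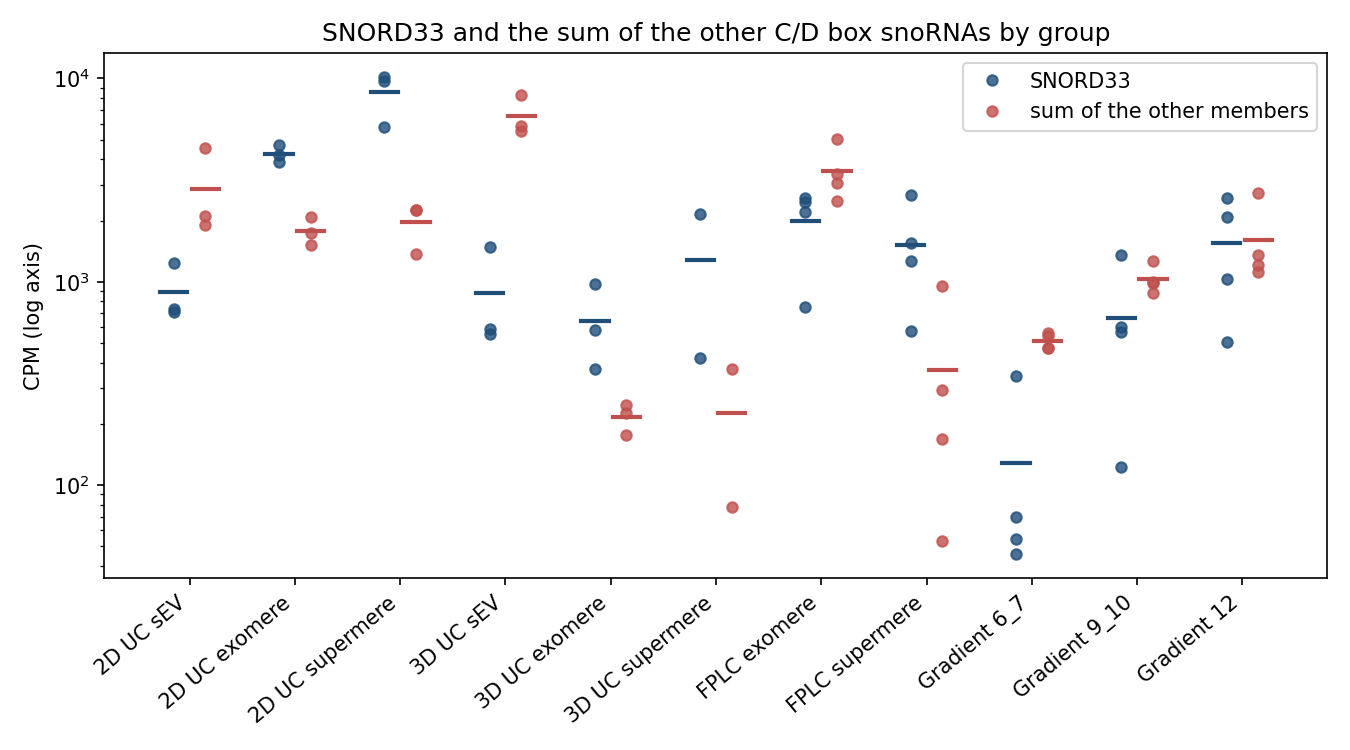
Points are libraries and lines are group means of SNORD33 (blue) and of the sum of the other members (red), in CPM on a log axis. SNORD33 lies above the rest in all UC exomere and supermere libraries and below it in all UC sEV and gradient 6_7 libraries.

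Within all snoRNA counts, the 141 members took 63.9% ± 3.15 in 2D sEV, 69.8% ± 6.95 in 2D exomeres and 58.0% ± 12.6 in 2D supermeres (SD, n = 3 each). They took 40.8% ± 9.12 in 3D sEV (n = 3), 65.9% ± 4.71 in 3D exomeres (n = 3) and 87.7% ± 4.60 in 3D supermeres (n = 2). The share was lowest in FPLC exomeres, at 24.7% ± 11.5 (n = 4), and was 79.1% ± 8.50 in FPLC supermeres (n = 4). U3 and U8, which act in cleavage of the rRNA precursor rather than in methylation, were counted together with U13. Jointly they took 65.8% ± 15.6 of the snoRNA counts in FPLC exomeres and 42.0% ± 10.4 in 3D sEV. The other groups had 1.21% to 17.1% on average. In the 3 gradient pools the members took 58.0% to 65.6% on average, beside H/ACA shares of 17.5% to 24.5%. A row with a box C and a box D but no SNORD symbol, ENSG00000273885 at chr11:93721797-93721866 on the plus strand in an intron of CEP295, lies outside the rule. It took 37.2% ± 12.8 of the snoRNA counts in 2D supermeres and 17.7% on average in 2D exomeres.

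By mean CPM, 71 of the 141 members were highest in 3D sEV, 40 in 2D sEV, 10 in FPLC exomeres, 8 in gradient 12, 6 in 2D supermeres, 4 in gradient 9_10 and 2 in 2D exomeres. No member was highest in 3D UC exomeres, 3D supermeres, FPLC supermeres or gradient 6_7. The median member stood at 11.8 CPM in 3D sEV and 9.78 in 2D sEV, and at 0.746 in 2D exomeres, 0.322 in 3D exomeres and 0.114 in 2D supermeres. Members with no count in a whole group numbered 0 in 2D sEV and 1 in 3D sEV, against 95 in 3D supermeres, 54 in FPLC supermeres, 45 in 2D supermeres and 34 in 3D exomeres. A 0 in 3D supermeres or gradient 9_10 bounds less than one in 2D sEV, because 3 counts equal 0.725 to 1.45 CPM and 6.12 to 37.0 CPM in their libraries and 0.177 to 0.279 CPM in 2D sEV.

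The order of the members by level was most alike in 3D sEV and FPLC exomeres, with a Spearman rho of 0.80 across the 141 group means. It was 0.76 between 2D exomeres and 2D supermeres, 0.76 between 2D sEV and gradient 6_7 and 0.74 between 2D and 3D sEV. The lowest was 0.19, between 2D sEV and 3D supermeres. The points share their libraries and many zero counts, so these values are descriptions. Level and length were related weakly in each group (rho from -0.225 to 0.12), as were level and GC content (rho from 0.00022 to 0.25).

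**Figure D3:**
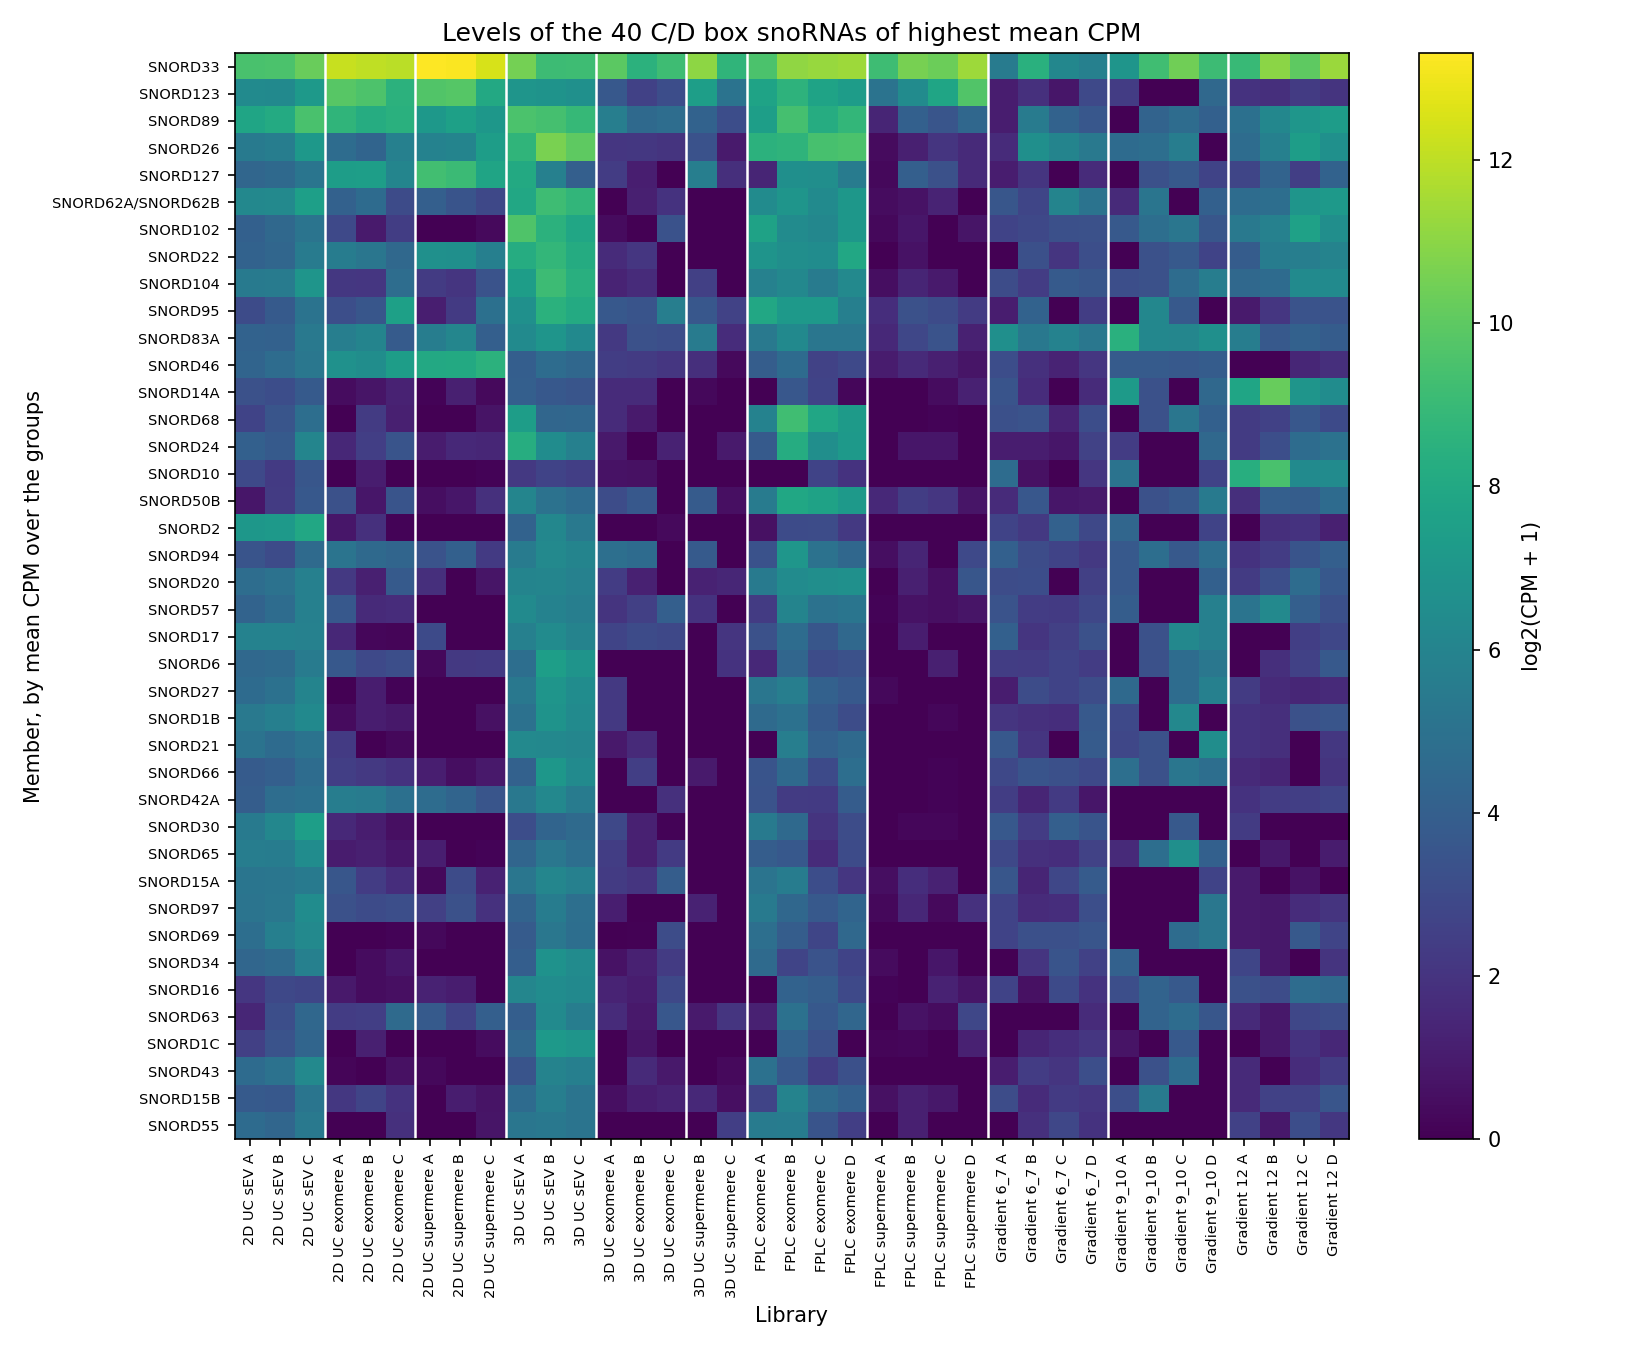
Rows are the 40 members of highest mean CPM over the groups, columns are the 37 libraries, and colour gives log2(CPM + 1). The 6 UC sEV columns and the FPLC exomere columns are coloured through most rows, while most rows of the supermere columns are at or near 0.

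In 3D, 74 of the 138 members tested were lower in exomeres than in sEV, where 4.87% of all features were, and SNORD33 did not pass. SNORD26, a guide of 28S rRNA from SNHG1, had 417, 1590 and 1024 CPM in sEV and 3.25, 3.45 and 2.98 CPM in exomeres. SNORD62A/SNORD62B, a guide of 18S rRNA counted as 1 row for both copies, had 253, 576 and 433 CPM against 0, 1.24 and 2.89. SNORD22, an orphan from the same host as SNORD26, had 301, 445 and 296 CPM against 2.07, 3.26 and 0. None of these ranges overlapped. The log2 fold changes, with library totals as the scale, were -8.28 ± 1.23 (SE) for SNORD26 (edgeR's quasi-likelihood test, Benjamini-Hochberg adjusted p = 4.2e-08), -8.16 ± 1.35 for SNORD62A/SNORD62B (adjusted p = 1.1e-06) and -7.60 ± 1.34 for SNORD22 (adjusted p = 5.0e-06). SNORD6, with 26.8, 173 and 119 CPM in sEV, and the 28S guide SNORD55, with 35.8, 39.3 and 33.7 CPM, had no count in any 3D exomere library. Bounds of this kind cover counting error only, since no molecular identifiers are described for these libraries. Set against 3 counts over the group, SNORD6 was at least 1101-fold and SNORD55 at least 372-fold lower there (edgeR, adjusted p = 1.3e-06 and 5.4e-05). SNORD37, a guide of 28S rRNA, had 16.1, 68.1 and 44.0 CPM against a single count in 1 exomere library (edgeR, adjusted p = 0.00049). SNORD104, a guide of 28S rRNA, had 168, 556 and 339 CPM in sEV against 1.48, 2.15 and 0 in exomeres (-8.18 ± 1.40, edgeR, adjusted p = 2.5e-06). SNORD89, an orphan from RNF149, was lower by less, with 757, 681 and 475 CPM against 51.5, 22.5 and 26.5 (-4.25 ± 1.02, edgeR, adjusted p = 0.0020). Neither range overlapped. SNORD33 differed by -0.44 ± 0.75 on the log2 scale, with overlapping ranges (edgeR, adjusted p = 0.90).

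Of the 138 members tested, 0 were called higher and 74 lower in 3D exomeres than in 3D sEV at an adjusted p of 0.05, where 4.87% of all 8979 features were called lower and 0.111% higher. The median log2 fold change of the members was -5.57, and that of all features -0.32. Of those 74 members, 25 had no count in any exomere library, so their fitted sizes are not firm. The count was 47, 33 and 38 without exomere libraries A, B and C. With the snoRNA total as library size, 20 of 129 members were lower and 2 higher in 3D exomeres, where 12.5% and 3.46% of the 289 snoRNA rows were called.

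In 3D supermeres more members had no count. SNORD102, a guide of 28S rRNA, had 805, 381 and 231 CPM in 3D sEV and no count in either supermere library, which makes it at least 1005-fold lower. SNORD62A/SNORD62B and SNORD22 also had no count and were at least 883-fold and 736-fold lower, and for these 3 members the edgeR adjusted p was 1.8e-07, 2.1e-07 and 5.4e-07. SNORD123 had 122, 115 and 101 CPM in sEV and 178 and 32.9 CPM in supermeres. Its ranges overlapped, as did those of SNORD33 and of SNORD127, with 275, 54.3 and 15.2 CPM against 50.2 and 2.42. Of 138 members 48 were lower and 0 higher, against 3.98% and 0.0557% of all features, with medians of -8.13 for the members and -2.46 for all features. Leaving out supermere library B or C, so that the remaining one is assumed to vary like the other groups, gave 7 and 5 members. On the snoRNA scale 12 were lower and 2 higher (8.3% and 1.38% of the snoRNA rows), and SNORD123 was 1 of the 2, at 3.27 (edgeR, adjusted p = 0.0040).

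In 2D a few members besides SNORD33 were higher in the particles than in sEV. SNORD127 had 19.7, 22.6 and 35.7 CPM in 2D sEV, 166, 173 and 65.8 CPM in exomeres and 627, 529 and 215 CPM in supermeres. SNORD46, a guide of 28S rRNA, had 18.6, 24.9 and 38.3 CPM in sEV, 107, 90.4 and 171 CPM in exomeres and 263, 272 and 371 CPM in supermeres. SNORD123 had 80.5, 78.6 and 139 CPM in sEV, 929, 775 and 375 CPM in exomeres and 846, 882 and 260 CPM in supermeres. For all 3 every particle library lay above every sEV library. In supermeres against sEV, SNORD127 rose by 4.14 ± 1.11 on the log2 scale (edgeR, adjusted p = 0.0055), SNORD46 by 3.47 ± 1.15 (adjusted p = 0.045) and SNORD33 by 3.26 ± 0.81 (adjusted p = 0.0019). The SNORD46 call was lost without any 1 of the 6 libraries, without the filter on low counts and on the snoRNA scale, and that of SNORD127 without sEV library A or B and on the snoRNA scale. SNORD123 did not pass (2.74 ± 0.95, edgeR, adjusted p = 0.061). Exomeres against sEV gave 2.25 ± 0.78 for SNORD33 (edgeR, adjusted p = 0.076), 2.80 ± 0.95 for SNORD123 (adjusted p = 0.065), 2.38 ± 1.03 for SNORD127 and 2.17 ± 1.09 for SNORD46, none of which passed.

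Other members were lower in the 2D particles than in 2D sEV. SNORD2, from EIF4A2, had 129, 139 and 256 CPM in 2D sEV, 0.741, 2.57 and 0.0759 CPM in exomeres and no count in supermeres. SNORD30, a guide of 28S rRNA, and SNORD27, a guide of 18S rRNA, both from SNHG1, had 41.7 to 175 and 23.8 to 63.9 CPM in sEV and no count in supermeres. The bounds against 3 counts over the supermere group were at least 1214-fold lower for SNORD2, 666-fold for SNORD30 and 273-fold for SNORD27 (edgeR, adjusted p = 2.8e-08, 1.1e-06 and 4.3e-06). In exomeres the largest declines by the fixed rule were those of the 28S guide SNORD69, of SNORD82 and of the 18S guide SNORD43. SNORD69 had 26.8, 53.4 and 77.0 CPM in sEV and 1 count in exomeres, SNORD82 had 32.4, 29.5 and 47.4 CPM and 3 counts, and SNORD43 had 24.0, 31.6 and 74.7 CPM and 8 counts. Their edgeR adjusted p-values were 4.4e-05, 0.0015 and 0.0014.

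Counted over the set, 0 members were called higher and 34 lower in 2D exomeres than in 2D sEV, against 1.12% and 3.12% of all features. In 2D supermeres 5 were higher and 73 lower, against 1.4% and 4.52%. The other 2 of the 5 were rows of SNORD115 copies, at 2.27 to 6.33 and 1.71 to 4.75 CPM, which share reads and are uncertain as single features. Median log2 fold changes of the members were -3.02 and -5.42, while those of all features were 1.82 and 1.12. Exomere counts were 14, 17, 15 and 18 without exomere A, B or C or sEV C, and supermere counts were 36, 33, 41 and 48 without supermere A, B or C or sEV C. On the snoRNA scale, where SNORD33 fills much of the total, 80 members were lower and 5 higher in exomeres (51.9% and 3.11% of snoRNA rows) and 108 lower and 5 higher in supermeres (73.7% and 3.46%).

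Between cultures, few members were called in sEV. The summed level of the members other than SNORD33 was 1895 to 4530 CPM in 2D sEV and 5522 to 8311 CPM in 3D sEV, without overlap. SNORD102 had 16.2, 21.5 and 33.5 CPM in 2D sEV and 805, 381 and 231 CPM in 3D sEV, and SNORD26 had 42.3, 48.7 and 137 against 417, 1590 and 1024. Both ranges were apart, and these 2 members alone were called, at 4.31 ± 1.13 (edgeR, adjusted p = 0.020) and 3.73 ± 1.00 (adjusted p = 0.026). Higher calls made up 0.735% of all features and lower ones 0.078%, and no member was called lower. The medians were 0.59 for members, which turned to -1.20 on the snoRNA scale, and -1.68 for all features. On the snoRNA scale 0 were higher and 1 lower (1.73% and 0.346% of snoRNA rows). An unadjusted p under 0.05 was found for 21 members, and DESeq2 called 15. Shares of all features are not given for these counts or for the fit of 2 groups below, so they are descriptions. Without the filter on low counts, or without any 1 of the 2D sEV libraries, no member was called, without a 3D sEV library 1 was, and a fit of these 2 groups alone called 32 higher and 5 lower. SNORD116-3/SNORD116-9, from an imprinted cluster on chromosome 15 whose copies share reads, had 23.1, 7.43 and 4.81 CPM in 3D sEV and 0.0651, 0.642 and 1.82 in 2D sEV.

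The log2 difference of exomeres from sEV was lower in 3D than in 2D for 8 members and higher for 0 by a test of that difference itself, which called 0.768% and 0.078% of all features. The 8 were SNORD6 (-10.37 ± 2.18, edgeR, adjusted p = 0.00089), SNORD127 (-8.47 ± 1.60, adjusted p = 0.00034), SNORD14B (-8.36 ± 2.23, adjusted p = 0.027), SNORD22 (-7.96 ± 1.60, adjusted p = 0.00056), SNORD26 (-7.07 ± 1.40, adjusted p = 0.00056), SNORD123 (-6.58 ± 1.37, adjusted p = 0.00082), SNORD104 (-5.52 ± 1.55, adjusted p = 0.046) and SNORD62A/SNORD62B (-5.37 ± 1.48, adjusted p = 0.043). SNORD22 shows the pattern, with 47.4, 36.6 and 21.6 CPM in 2D exomeres beside 17.1, 19.9 and 45.1 in 2D sEV, and 3.26 CPM or less in 3D exomeres beside 296 or more in 3D sEV. The members' median difference was -2.49 and that of all features -2.44. On the snoRNA scale the direction turned, with 24 members called higher and 1 lower (19.4% and 0.692% of snoRNA rows), and 5 were called without 2D sEV A, B or C, 3D sEV A or B, or 3D exomere B. Culture and medium pools changed together and cannot be told apart.

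**Figure D4:**
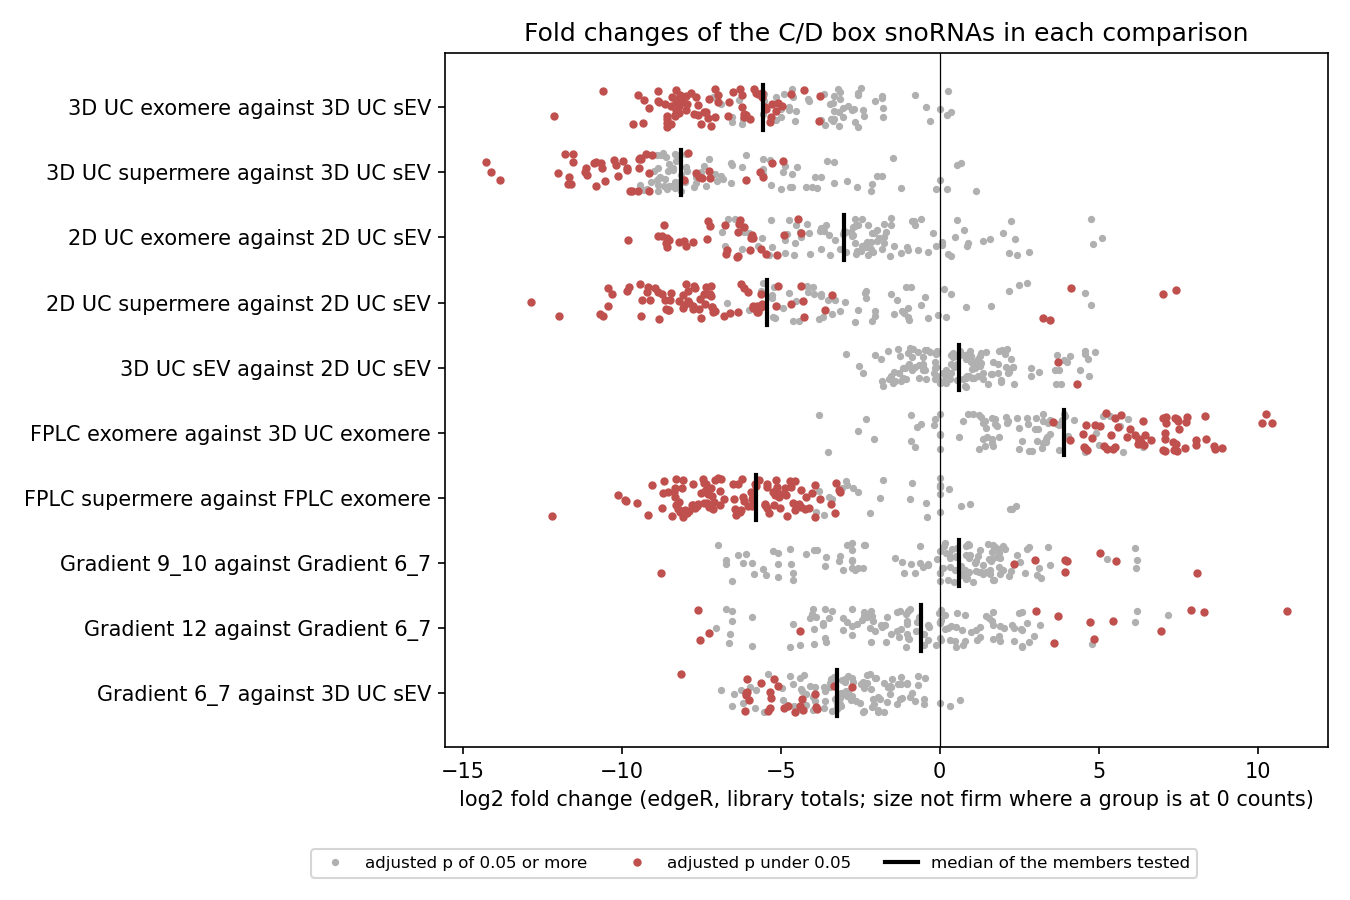
Each point is 1 of 138 members in 1 of 10 comparisons, placed by its log2 fold change, and points in red had an adjusted p under 0.05. The points lie mostly left of 0 in exomeres and supermeres against sEV and right of 0 in FPLC against UC exomeres.

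Exomeres isolated from 3D medium by FPLC held more C/D box snoRNA, in CPM, than those isolated by UC. SNORD68, a guide of 28S rRNA from RPL13 and a common qPCR reference, had 59.5, 593, 238 and 151 CPM in FPLC exomeres and 2.07, 0.978 and 0 CPM in 3D UC exomeres. SNORD26 had 370, 404, 683 and 754 CPM against 3.25, 3.45 and 2.98. Neither range overlapped, and the log2 fold changes were 8.07 ± 1.45 (edgeR, adjusted p = 9.4e-06) and 7.41 ± 1.18 (adjusted p = 2.0e-07). SNORD100, with 11.2, 64.3, 39.9 and 17.1 CPM in FPLC exomeres, SNORD14B, with 32.6, 49.7, 18.5 and 16.4, and SNORD55, with 46.2, 46.4, 9.88 and 4.5, had no count in UC exomeres and were at least 352-fold, 299-fold and 271-fold higher (edgeR, adjusted p = 0.00023, 0.00011 and 0.00013). SNORD100 and SNORD14B guide 18S rRNA. SNORD33 gave 1.64 ± 0.73 with overlapping ranges (edgeR, adjusted p = 0.096).

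Of 138 members 58 were higher and 0 lower in FPLC exomeres, beside 10.6% and 0.691% of all features, with medians of 3.92 and 1.85. The count was 24 and 22 without UC exomere library B or C. The direction rests on the scale, since with the snoRNA total 11 were higher and 19 lower (9.34% and 20.4% of snoRNA rows), in libraries where U3, U8 and U13 took 46.9% to 83.6% of the snoRNA counts. Against 3D sEV the FPLC exomeres were not tested, and their mean sum was 5488 ± 1663 CPM (SD, n = 4) beside 7424 ± 1286 (n = 3).

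FPLC supermeres were low in most members. SNORD68 had 1 count in the 4 FPLC supermere libraries, and SNORD22 had 116, 95.5, 86.8 and 254 CPM in exomeres against 3 counts in supermeres, all in library B. SNORD14E, an 18S guide with 17.2, 49.7, 20.0 and 17.2 CPM in exomeres, had no count and was at least 272-fold lower. The log2 fold changes of SNORD68 and SNORD22 were -12.20 ± 1.55 and -9.86 ± 1.33 (edgeR, adjusted p = 1.1e-12 and 2.1e-11), and the adjusted p of SNORD14E was 1.4e-06. SNORD33 and SNORD123 stood apart from this, at -0.40 ± 0.65 (edgeR, adjusted p = 0.68) and 0.28 ± 0.77 (adjusted p = 0.89), each with overlapping ranges. SNORD123 had 211, 394, 208 and 162 CPM in exomeres and 32.6, 85.2, 222 and 843 CPM in supermeres. Over the set 109 members were lower and 0 higher, in a comparison where 48.0% of all features were lower and 0.234% higher, and the medians were -5.78 and -3.77. TMM scaling left 46 lower and 2 higher, and the snoRNA total 52 lower and 7 higher (31.5% and 9.0% of snoRNA rows).

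**Figure D5:**
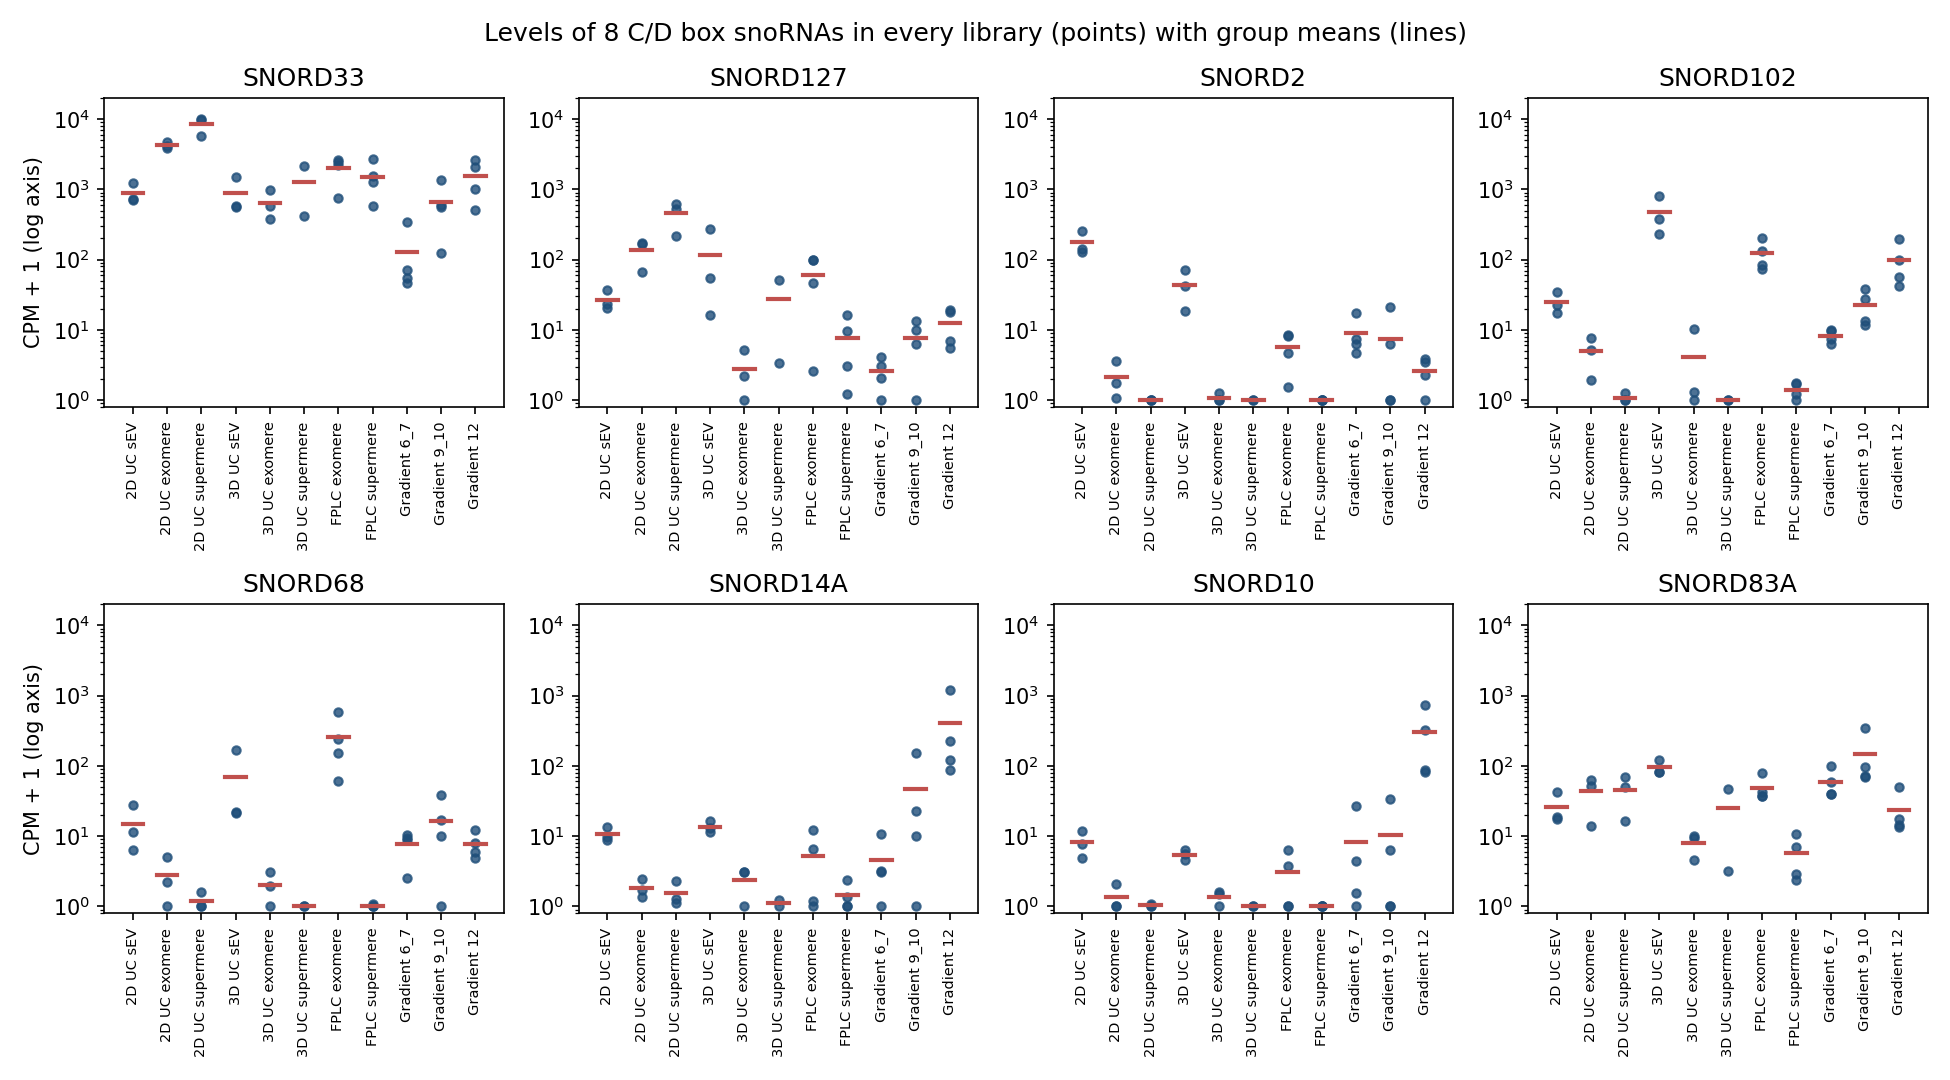
Each panel is 1 member, with CPM + 1 of every library on a log axis (points) and group means (red lines) over the 11 groups. SNORD33 is present in all groups, SNORD127 peaks in 2D supermeres, SNORD2 in 2D sEV, SNORD102 in 3D sEV, SNORD68 in FPLC exomeres and SNORD14A and SNORD10 in gradient 12, while the highest value of SNORD83A, 347 CPM, is library A of gradient 9_10.

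Along the density gradient, some members had their highest mean in pool 12. SNORD14A, a guide of 18S rRNA, had 223, 1201, 121 and 87.8 CPM in pool 12 and 9.89, 2.22, 0 and 2.12 CPM in pool 6_7. SNORD10 had 327, 728, 80.3 and 85.1 CPM against 25.5, 0.529, 0 and 3.37. SNORD115-5, from the imprinted chromosome 15 cluster best known from brain, had 130, 44.1, 2.36 and 9.67 CPM against 0, 0.0529, 0 and 0. These 3 members were named by a rule that asks for a call and for ranges that do not overlap. The spread within pool 12 was wide, with library B highest for SNORD14A and SNORD10. Log2 fold changes were 6.97 ± 1.17 for SNORD14A (edgeR, adjusted p = 1.5e-07) and 5.44 ± 1.14 for SNORD10 (adjusted p = 6.2e-05). SNORD115-5 was fitted at 10.94 ± 2.29 (edgeR, adjusted p = 6.4e-05). That size is not firm, since its counts in pool 6_7 summed to 0.1. Of its 217.9 counts, pool 12 libraries A to D held 133.3, 53.7, 4.2 and 19.2. Only with pool 12 did SNORD115-5 reach the minimum for members, so its call there is a description. In every other group the mean of SNORD14A was 45.5 CPM or less, and that of SNORD10 was 9.50 CPM or less. Library A of pool 9_10, with 490374 counts, held 74.3 counts of SNORD14A and 16 of SNORD10. By CPM this SNORD14A level lay above pool 12 libraries C and D, so these pools overlapped. The SNORD10 level there lay below every pool 12 library. SNORD14B, also from RPS13, and SNORD14E, from HSPA8, were called higher too, at 4.72 ± 1.39 and 4.85 ± 1.38 (edgeR, adjusted p = 0.014 and 0.0099). SNORD14C and SNORD14D were not, at 0.36 ± 1.28 and -3.38 ± 1.47 (edgeR, adjusted p = 1 and 0.22). Copies of SNORD14 can share reads, and the counts of SNORD14A, SNORD14B, SNORD14E and SNORD115-5 are not whole. In pool 12 libraries A to D, SNORD14B had 19.9, 118.9, 16.9 and 25.7 counts and SNORD14E had 19.9, 120.9, 23.8 and 18.7. SNORD14B and SNORD14E are therefore uncertain as separate features there. On the snoRNA scale SNORD14A remained higher (4.47, edgeR, adjusted p = 0.012), while SNORD10 did not pass (3.05, adjusted p = 0.063), and DESeq2 did not call SNORD115-5.

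Of 138 members 10 were higher and 4 lower in pool 12 than in 6_7, beside 1.11% and 5.39% of all features, with medians of -0.58 and 0. The 4 were SNORD15A, SNORD45A, SNORD52 and SNORD7, named after their values were seen, with 0.976 CPM or less in each pool 12 library. The count was 6, 9 and 9 without pool 12 library B, C or D, and 9 and 7 without pool 6_7 library A or C. The split turned with the scale, with 5 higher and 49 lower by the snoRNA total (3.46% and 29.4% of snoRNA rows) and 23 higher and 1 lower in DESeq2.

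Pool 9_10 held 81079 to 490374 counts and from 40 to 71 members with a count in a library. SNORD83A, from RPL3, was the highest member in library A of both pools, with 347, 71.2, 67.8 and 96.9 CPM in 9_10 and 97.8, 39.1, 58.6 and 38.5 CPM in 6_7. The ranges overlapped and it did not pass (1.36 ± 0.92, edgeR, adjusted p = 0.22). SNORD33 was called, at 2.35 ± 0.68 (edgeR, adjusted p = 0.0042), although its ranges overlapped. SNORD14A was called as well, at 3.94 ± 1.04 (edgeR, adjusted p = 0.0018), and its ranges overlapped too. In all 8 members were higher and 1 lower, SNORD110 (named after its values were seen, with no count in 9_10), in a comparison where 42.2% and 0.134% of all features were, with medians of 0.60 and 5.32. Scaling decided the direction, with 0 higher and 9 lower by TMM, 0 and 11 by DESeq2, and none called on the snoRNA scale. Without pool 6_7 library C or D, or pool 9_10 library B, the count was 4, 5 and 5.

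The gradient's pool 6_7 was compared with the UC sEV of the same culture. SNORD24, a guide of 28S rRNA from RPL7A, had 316, 87.8 and 54.0 CPM in 3D sEV and 1.06, 1.06, 0.776 and 5.18 CPM in pool 6_7. SNORD63, another 28S guide, had 15.0, 81.3 and 48.5 CPM against 0, 0, 0 and 2.07, and SNORD37 16.1, 68.1 and 44.0 against 3.19, 0, 0 and 0. The rule that named these 3 members asks for a call and for ranges that do not overlap. Their log2 fold changes were -6.10 ± 1.21, -6.08 ± 1.48 and -6.13 ± 1.67 (edgeR, adjusted p = 5.7e-05, 0.0030 and 0.013). The call of SNORD37 was lost without 3D sEV B or without pool 6_7 B, C or D, and on the snoRNA scale all 3 were lost. SNORD33 was lower as well (-2.76 ± 0.72, edgeR, adjusted p = 0.0076), while SNORD83A overlapped (-0.69 ± 0.96, adjusted p = 0.72). Over the set 25 were lower and 0 higher, beside 3.36% and 0.178% of all features, with medians of -3.22 and -2.23. Counts were 12 and 14 without 3D sEV B or C, and 13 without any 1 of the pool 6_7 libraries. As a share of snoRNA the median log2 change of the members was 1.02, and the calls showed no direction, with 1 higher and 0 lower (2.08% of snoRNA rows each way).

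Grouped by target, lower guides of 18S and of 28S rRNA were found in the same comparisons. Of 36 guides of 18S rRNA, 20 were lower in 3D exomeres and 18 in 3D supermeres than in 3D sEV, and 9 and 26 in the 2D pair. Of 47 guides of 28S rRNA, 27 and 18 were lower in 3D and 18 and 29 in 2D. Over all features, 4.87% and 3.98% were lower in these 3D comparisons and 3.12% and 4.52% in the 2D ones. FPLC exomeres had 15 guides of 18S and 20 of 28S rRNA above UC exomeres, where 10.6% of all features were higher, and FPLC supermeres had 28 and 39 below FPLC exomeres, where 48.0% of all features were lower. Medians in 3D exomeres against sEV were -5.51 for 18S and -6.17 for 28S guides, beside -5.57 for all tested members. In summed level 18S guides led because SNORD33 is 1 of them, with 8611 CPM in 2D supermeres against 461 for the 28S guides, while 28S guides led in 3D sEV, with 3242 against 2089.

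Of 5 guides of U6 snRNA, 2 were lower in 3D exomeres and 2 in 2D supermeres, beside 4.87% and 4.52% of all features. In FPLC supermeres against FPLC exomeres, where 48.0% of all features were lower, 4 of the 5 guides were. SNORD94, the most abundant of them, had 46.2, 75.5 and 63.0 CPM in 3D sEV and 28.1, 24.2 and 0 CPM in 3D exomeres, and did not pass (-1.82 ± 1.21, edgeR, adjusted p = 0.38). SNORD7 had 13.7, 4.10 and 6.58 CPM in 3D sEV and no count in 3D exomeres, and was lower (edgeR, adjusted p = 0.0058). Both 5.8S guides, SNORD71 and SNORD96A, were lower in FPLC supermeres, and neither passed in the other comparisons.

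By host, a list of ribosomal protein genes held 33 members, while the annotation gave 39. Of the 33 listed, 21 were lower in 3D exomeres, 13 in 3D supermeres, 11 in 2D exomeres and 21 in 2D supermeres, where 2 were higher. The 6 members of SNHG1 had 4, 5, 3 and 4 lower in the same comparisons and 0 higher. Over all features 4.87%, 3.98%, 3.12% and 4.52% were lower there. Of 10 symbols of the GAS5 host, 3 rows were in the table, all under the minimum, and 0 were members. In FPLC against UC exomeres 10.6% of all features were higher. The 15 members of the imprinted clusters, 14 of them tested, had 8 lower in 3D exomeres and 8 higher in FPLC exomeres, where copies that share reads move together. Their summed level was 35.6 to 144 CPM in 3D sEV, 1.06 to 72.4 in FPLC exomeres and 22.7 to 171 in gradient 12, and 33.4 or less in every library used of the other groups.

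The set holds 6 snoRNAs used as references in miRNA qPCR, of which 3 were lower in 2D supermeres than in 2D sEV. In that comparison 73 of all 138 members tested and 4.52% of all features were lower. SNORD48 had 6.14, 7.59 and 11.7 CPM in 2D sEV and no count in 2D supermeres, SNORD61 had 11.8, 8.18 and 17.6 against 0, 0 and 0.601, and SNORD72 had 0.744, 2.88 and 7.35 against 0, 0 and 0.172. SNORD48, SNORD61 and SNORD68 passed there (edgeR, adjusted p = 0.0041, 0.038 and 0.00071), and SNORD72 did not (adjusted p = 0.16). SNORD96A had 6.05, 4.00 and 11.8 CPM in 2D sEV and 0, 0.855 and 0.343 in supermeres (edgeR, adjusted p = 0.16). SNORD95 had 102, 358 and 277 CPM in 3D sEV and 7.35, 12.4 and 32.2 in 2D sEV (3.82 ± 1.14, edgeR, adjusted p = 0.079), without overlap. All 6 were called lower in FPLC supermeres than in FPLC exomeres with library totals, as were 48.0% of all features.

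Other snoRNA genes outside the set were read in the same comparisons, where 4.87%, 3.98%, 3.12% and 4.52% of all features were lower. Of 97 H/ACA box snoRNAs tested, 37 were lower in 3D exomeres, 27 in 3D supermeres, 10 in 2D exomeres and 24 in 2D supermeres than in sEV. Of 23 tested rows of U3, U8, U13 and their copies, 7, 6, 1 and 1 were lower, and of 13 host transcripts 3, 3, 2 and 2. The medians of H/ACA snoRNAs, -5.51 in 3D and -3.69 in 2D exomeres, stood beside -5.57 and -3.02 for the C/D members. Of 3 scaRNAs tested, which guide modification of spliceosomal RNAs, 1 was lower in 3D exomeres and 0 in the other 3.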

How the data were processed

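Small RNA-seq libraries were made from fractions of DiFi medium. The authors deposited 1 table of expected counts (12.1% of member values are not whole, tolerance 1e-06), with cutadapt 4.5, FastQC 0.12.1, Bowtie 1.3.1 and GRCh38.p13 named in the submitters' processing notes. The counting tool, its annotation and its use of strand are not given in the sources used here.

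Groups were taken from the labels. The members and lists were chosen with earlier results of these data known. CPM used the deposited counts. Tests used rounded counts in 1 edgeR 4.0.16 quasi-likelihood fit (R 4.3.3, robust) of all 11 groups, with library totals as library sizes, since TMM factors ran from 0.0670 to 8.98, and a filter at a minimum count of 10. This tested 8979 features at an adjusted p of 0.05 over all of them, and the method was tested on simulated data. SE was taken from the fold change and F. A second fit used the 289 snoRNA rows with the snoRNA total as library size. The named members are the 10 of highest mean, up to 3 per direction and comparison with the largest called change, at least 20 CPM and no overlap, the qPCR references, the 2 highest of each list, those next to the minimum, and the top member by share of each group. Alternatives were TMM, DESeq2 1.42.0, the snoRNA total, no filter, only the groups compared, the near-empty library kept, a replicate block and leaving out each library. Python 3.11.15 was used for summaries.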

Additional observations from a re-analysis of the deposited data

Results flagged for a closer look

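In FPLC supermeres SNORD22 had 0.548 CPM in library B, from 3 counts, and none in the other 3 libraries. In gradient 6_7 SNORD33 had 346 CPM in library B against 45.7 to 69.9 CPM in the other 3. Both are single libraries set apart from the rest of their group, out of 60 values examined in this way. Chance marks about 1 group in 20, and the 2 flags do not exceed that rate. For SNORD22, with no count in the other libraries, any count at all would be flagged. Without library B, gradient 6_7 had 13 members below 3D sEV.

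The log2 change of exomeres against sEV differed between 3D and 2D culture in 8 of the 40 named members tested for it, each lower in 3D. The differences were -10.37 for SNORD6, -8.47 for SNORD127, -8.36 for SNORD14B, -7.96 for SNORD22, -7.07 for SNORD26, -6.58 for SNORD123, -5.52 for SNORD104 and -5.37 for SNORD62A/SNORD62B. For SNORD6 and SNORD14B the 3D exomere libraries held no count, so the sizes of their differences are not firm.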

How the results depend on the processing

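TMM moved the median of all features by -2.61 to 2.16 (log2) and DESeq2 by -3.75 to 3.32 against library totals. Counts of called members moved by over 1.5 times as follows. With the snoRNA total they were 22 in 3D exomeres against sEV, 14 in 3D supermeres, 85 in 2D exomeres, 1 in 3D against 2D sEV, 30 in FPLC against UC exomeres, 59 in FPLC supermeres, 0 in 9_10 against 6_7, 54 in 12 against 6_7, 1 in 6_7 against 3D sEV and 25 for the difference between cultures. Without the filter they were 28 in 3D supermeres, 20 in 2D exomeres, 48 in 2D supermeres, 0 in 3D against 2D sEV, 34 in FPLC exomeres, 4 in 9_10, 7 in 12, 14 in 6_7 and 5 for the difference between cultures. Fitting only the groups compared gave 108 in 3D supermeres, 81 in 2D exomeres, 37 in 3D against 2D sEV (32 higher, 5 lower), 27 in FPLC exomeres, 43 in FPLC supermeres, 1 in 9_10, 83 in 6_7 and 24 for the difference. TMM gave 78 in 2D exomeres, 8 in 3D against 2D sEV, 48 in FPLC supermeres and 43 in 6_7, and for the difference 2 higher and 6 lower. DESeq2 gave 82 in 3D supermeres, 67 in 2D exomeres, 15 in 3D against 2D sEV, 44 in FPLC supermeres (5 higher, 39 lower), 24 in 12, 67 in 6_7 and 19 for the difference (4 higher, 15 lower). The cause was not tested.

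Leaving out 1 library gave 33 to 65 members in 3D exomeres, 5 to 42 in 3D supermeres, 14 to 25 in 2D exomeres, 33 to 68 in 2D supermeres, 0 to 1 in 3D against 2D sEV, 22 to 68 in FPLC exomeres, 85 to 113 in FPLC supermeres, 4 to 9 in 9_10, 6 to 14 in 12, 12 to 21 in 6_7 and 5 to 9 for the difference.

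Over all features the replicate letters showed little pairing. Of 96 same-letter pairs across groups 2 had correlated deviations over 0.1, and of 272 other pairs 9 did. Single rows can differ from this. In 2D, ENSG00000273885 was lowest in library C of each fraction, with 231, 230 and 133 CPM in sEV A, B and C. It had 2238, 2202 and 478 CPM in exomeres and 11813, 9685 and 2240 CPM in supermeres. SNORD33 was highest in sEV C and lowest in exomere C and supermere C. Whether the 2D C libraries share a batch was not tested. A replicate block gave 73, 45, 30 and 72 called members in the 3D and 2D particles against sEV, in the order of the report, 0 in 3D against 2D sEV, 37 in FPLC exomeres, 93 in FPLC supermeres, 5 in 9_10, 12 in 12, 26 in 6_7 and 7 for the difference. Under the block SNORD102 (4.35) and SNORD26 (4.28) in 3D against 2D sEV and SNORD37 (-5.50) in 6_7 did not pass.

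With a minimum of 1000 counts the C/D share of snoRNA counts was 55.6% in 2D sEV and 56.2% in 6_7. For the called changes named by their size, 187 combinations of a change and another setting kept direction and side of the threshold and 15 missed the threshold, and with 1 library left out 168 and 21 did. None of these combinations changed sign. SNORD33, not called in either with library totals, turned with the snoRNA total from 1.64 to -2.61 in FPLC against UC exomeres and from -0.44 to 3.42 in 3D exomeres against sEV. By total counts, depth limits 9_10 most.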

Other observations

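The other abundant snoRNA row with C/D boxes, ENSG00000273885 in an intron of CEP295, carries no SNORD symbol and is not among the members. Its share of snoRNA counts was 4.03% on average in 2D sEV, 17.7% in 2D exomeres and 37.2% ± 12.8 (SD, n = 3) in 2D supermeres.

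Transcripts of 16 snoRNA host genes summed to 549 CPM in 2D sEV and 725 CPM in 3D sEV on average. They summed to 136 CPM in 2D exomeres, 67.7 CPM in 2D supermeres, 21.9 CPM in 3D exomeres, 6.04 CPM in 3D supermeres and 5.61 CPM in FPLC supermeres. No host transcript of the 13 tested was called higher in a UC particle than in sEV, and 2 or 3 were called lower in each such comparison. Over all features 0.0557% to 1.4% were higher and 3.12% to 4.87% lower there, so the lack of higher calls is near that share.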
